A study of Mus musculus with 10 samples.

Results

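The nuclear genes of the mitochondrial respiratory chain were followed through 10 arrays of mouse retina. Members were the annotated symbols that begin with Nduf, Uqcr, Atp5 or Cox4 to Cox8, and Sdha to Sdhd, without Ndufa4l2. They came to 92 genes of the 30063 that have a transcript cluster with 1 symbol. A transcript cluster is the set of probes that the array assigns to 1 locus, and each gene was read from its single-symbol cluster of highest mean. The filter on low values kept 91 members among the 23255 genes tested, and left out Cox7b2, which read 3.39 to 3.94 on the log2 scale. The tested members were 33 subunits and 7 assembly factors of complex I, 4 subunits of complex II, 8 of complex III, 18 of complex IV, 17 symbols of complex V, and 4 gene copies. The copies were Ndufb4b and 3 pseudogenes (Atp5c1-ps, Atp5l-ps1 and Atp5l2-ps), whose probes may also read their parent genes.

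All mice were of the strain C57BL/6JJmsSlc and no genetic change is labelled. There were 5 groups of 2 arrays. Retina of untreated mice was taken at postnatal day 7 and at day 17, and the other 3 groups were day 17 mice with oxygen-induced retinopathy (OIR). In this model mice were kept in 75% oxygen for 5 days from day 7 and then returned to room air, which is known to close retinal capillaries and leave the inner retina short of oxygen. One OIR group had no injection. The others received either phosphate-buffered saline (PBS) or the inhibitor ISOX DUAL in the vitreous once the oxygen exposure ended. No label tells if both arrays of one group stem from different mice, pooled retinas or repeat hybridisations, so the p-values measure only the spread between arrays, which may be technical. Levels are the deposited log2 values, so a difference of 1 is a doubling. Where a pair of values is given, the first belongs to the first array of the group and the second to the second array.

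The respiratory chain passes electrons from NADH and succinate to oxygen and uses the energy to pump protons across the inner mitochondrial membrane. Complex I oxidises NADH, complex II oxidises succinate, complex III passes electrons from ubiquinol to cytochrome c, complex IV reduces oxygen to water, and complex V makes ATP from the proton gradient. Most subunits are encoded in the nucleus and a few core subunits in mitochondrial DNA, for which the annotation used here named no gene. In the retina, photoreceptors pack many mitochondria into their inner segments and are known for a high use of oxygen.

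Promoters of respiratory chain genes are known for sites of the factors NRF1, GABP (of the ETS family) and YY1. RefSeq windows of GRCm38.p6, from 250 bases before to 50 after the annotated start, were matched by symbol for 73 of the 91 tested members, and 5 of these had more than 1 window, for 78 in all. Below are the windows, cut to 30 bases after the start, of both genes that rose from day 7 to day 17 (Ndufaf5 and Uqcr10), of a subunit with large differences between arrays (Ndufa4), and of one that ran the other way (Atp5e). They read 5′ to 3′ on the gene's strand, and capitals mark a match to the NRF1, ETS or YY1 letters given after them.
Ndufaf5 (chr2:140170396-140170675, plus strand): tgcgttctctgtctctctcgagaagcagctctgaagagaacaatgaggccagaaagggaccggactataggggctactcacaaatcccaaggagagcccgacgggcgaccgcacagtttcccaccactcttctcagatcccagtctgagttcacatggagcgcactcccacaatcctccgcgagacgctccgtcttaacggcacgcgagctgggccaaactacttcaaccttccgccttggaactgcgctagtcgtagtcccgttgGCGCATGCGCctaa
Uqcr10 (chr11:4704315-4704594, minus strand): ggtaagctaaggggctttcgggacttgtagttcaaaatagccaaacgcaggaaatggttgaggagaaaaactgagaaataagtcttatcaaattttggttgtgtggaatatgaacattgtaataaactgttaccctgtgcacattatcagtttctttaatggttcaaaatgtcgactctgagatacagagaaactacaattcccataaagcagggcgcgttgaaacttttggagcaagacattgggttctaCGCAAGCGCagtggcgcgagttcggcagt
Ndufa4 (chr6:11907421-11907700, minus strand): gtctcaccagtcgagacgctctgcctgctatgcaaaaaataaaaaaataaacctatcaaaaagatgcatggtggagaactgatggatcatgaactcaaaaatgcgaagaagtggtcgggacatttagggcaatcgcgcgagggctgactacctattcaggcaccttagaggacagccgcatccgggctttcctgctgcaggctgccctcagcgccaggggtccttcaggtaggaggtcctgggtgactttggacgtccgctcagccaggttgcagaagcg
Atp5e (chr2:174464072-174464351, minus strand): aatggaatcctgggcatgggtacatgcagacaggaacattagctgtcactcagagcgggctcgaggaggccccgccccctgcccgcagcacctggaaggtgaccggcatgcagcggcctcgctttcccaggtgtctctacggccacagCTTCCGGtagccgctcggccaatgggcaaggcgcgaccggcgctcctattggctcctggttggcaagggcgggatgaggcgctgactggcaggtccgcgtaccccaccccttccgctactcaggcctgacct

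The searched letters were GCGCNTGCG for NRF1, CCGGAAG for ETS factors and AANATGGCG for YY1, each on both strands. Ndufaf5 held 2 overlapping NRF1 matches, which begin at positions 267 and 268 of the window, just after the annotated start. Uqcr10 held 1 NRF1 match at position 252, and Atp5e held 1 ETS match at position 149. The NRF1 letters were in 26 of the 78 member windows (33.3%), against 6.31% of all 32851 windows and 8.61% of the windows of protein-coding genes. The ETS letters were in 18 member windows (23.1%), against 8.86% of all windows and 11.6% of those of protein-coding genes. The YY1 letters were in 12 (15.4%), against 2.38% and 3.12%. The letters TCAAGGTCA of oestrogen-related receptors were in 2 member windows (2.56%), against 0.423% and 0.334%. The core ACGTG of hypoxia response elements was in 21 (26.9%), against 19.6% and 20.9%. The CCAAT box was in 31 (39.7%), against 37.4% and 38.2%. These shares describe letters, not binding, and no array value was tested against them.

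Negative-control probes set the background, with medians of 5.83 to 6.11 on the 10 arrays, while the median of all genes tested lay between 6.69 and 6.76. Of the 92 members, 3 read below the negative-control median on every array: Cox7b2, Cox8b and Cox8c. A further 4 did so on some arrays (Ndufaf2 and Atp5c1-ps on 6, Cox6a2 and Cox7a1 on 7). Cox8b, Cox6a2 and Cox7a1 are known as the heart and muscle forms of their subunits, and Cox8c as a testis form.

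In the members, the largest gap between 2 arrays of a group exceeded the range of group means more often than in all genes. The median over the tested members was 8.31 and 7.63 on the arrays of day 7, 8.05 and 8.22 at untreated day 17, and 8.01 and 7.65 in uninjected OIR. It was 7.68 and 8.05 after PBS and 7.79 and 8.04 after ISOX DUAL. The highest and the lowest of the 10 medians thus both belonged to day 7. The pooled standard deviation of this median within groups was 0.284 (n = 2 arrays in each of 5 groups). In 79 of 91 members (86.8%) the largest gap between 2 arrays of a group was wider than the range of the 5 group means, as it was in 58.2% of all genes tested. Lists of related genes had high shares too, with 86.5% in the cytosolic ribosome and 100% in 7 electron carriers and exchangers. The share was 73.3% in the citric acid cycle and 69.3% in the mitochondrial ribosome, but 55.2% in other assembly factors and 50% in regulators. The median of this largest gap was 0.50 in the members against 0.33 in all genes, whereas the median range of the group means was alike, 0.31 against 0.30.

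**Figure D1:**
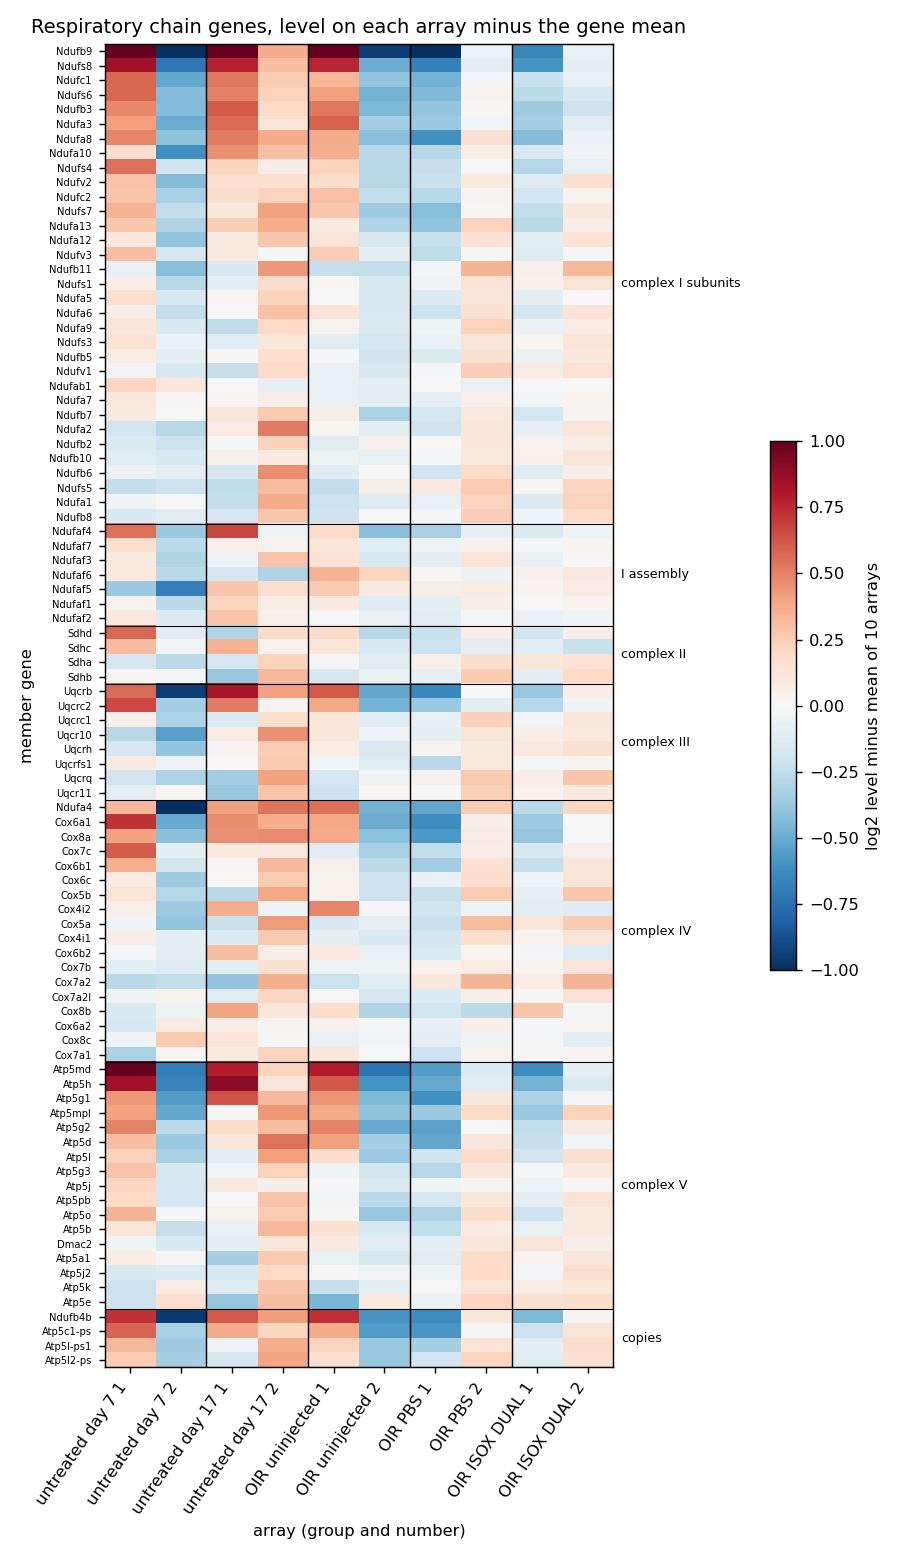
Heat map of the 91 tested members (rows, by complex) on the 10 arrays (columns), as log2 level minus the gene's mean over all arrays, with the colour scale ending at 1 in each direction. The second arrays of day 7 and uninjected OIR and the first arrays of both injected groups are blue for most members, so the 2 arrays of a group often have opposite colours.

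The direction of these gaps was shared across the members. The second array was the lower one in 78 of 91 members at day 7 (85.7%) and in 77 in uninjected OIR (84.6%), against 41.5% and 46.4% of all genes. The second array was the higher one in 88 members after PBS (96.7%) and in 85 after ISOX DUAL (93.4%), against 61.6% and 49.4% of all genes. At untreated day 17 the members were divided, with 58 higher and 33 lower on the second array. The combination of lower in day 7 and uninjected OIR and higher in both injected groups was seen in 66 members (72.5%) and in 16.7% of all genes. It was singled out after the values were seen and was given no test. The labels name no batch, hybridisation or scan, and what the arrays on each side of this divide share was not tested.

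**Figure D2:**
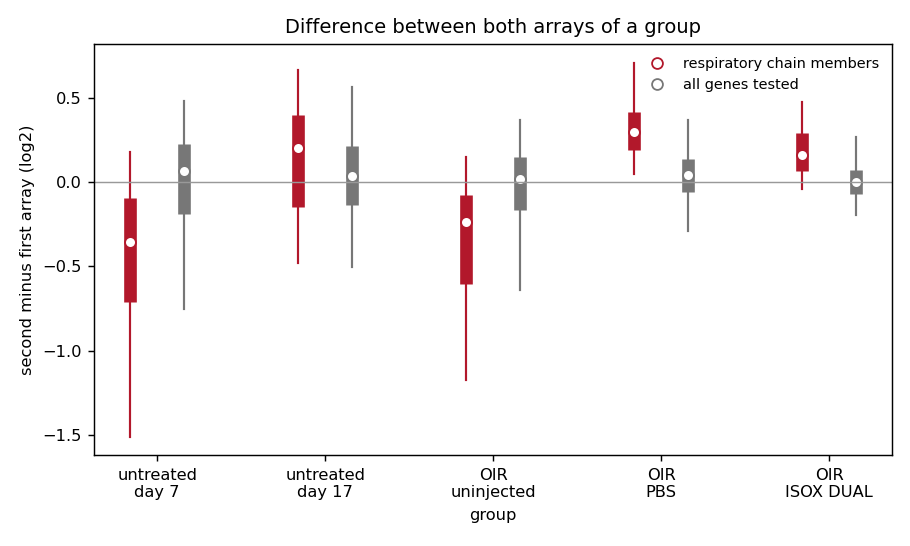
Difference between the 2 arrays of each group (second minus first, log2) for the tested members (red) and all genes tested (grey). The circle is the median, the thick bar the interquartile range, and the thin line runs from the 5th to the 95th percentile. The medians of the members are -0.35 at day 7, 0.20 at untreated day 17, -0.24 in uninjected OIR, 0.30 after PBS and 0.16 after ISOX DUAL, while those of all genes lie between -0.002 and 0.07.

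Single members differed widely in the size of the gap. Ndufb9, an accessory subunit of complex I, read 10.91 and 8.40 at day 7, 11.01 and 10.03 at untreated day 17, 10.79 and 8.71 in uninjected OIR, 8.51 and 9.60 after PBS, and 9.01 and 9.58 after ISOX DUAL. Its day 7 arrays were thus 2.51 apart, and 11 members were more than 1 apart there. Uqcrb, a small subunit of complex III, read 9.84 and 8.33 at day 7 and 9.89 and 8.76 in uninjected OIR, the same order of arrays. Ndufa4, first assigned to complex I and now known as a subunit of complex IV, read 10.04 and 8.68 at day 7, 10.13 and 10.25 at untreated day 17, and 10.26 and 9.24 in uninjected OIR. It read 9.20 and 9.97 after PBS and 9.44 and 9.92 after ISOX DUAL. Atp5h and Atp5md, subunits of the ATP synthase, had day 7 pairs of 8.98 and 7.48 and of 9.34 and 7.61.

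Among the core subunits quoted here, some had wide gaps and others narrower ones, and the size differed between groups. Ndufs8, an iron-sulphur subunit of complex I, read 8.87 and 7.30 at day 7, 8.80 and 8.33 at untreated day 17, and 8.79 and 7.53 in uninjected OIR. Sdha, the flavoprotein of complex II, read 8.61 and 8.52 at day 7, 8.60 and 8.99 at untreated day 17, and 8.79 and 8.66 in uninjected OIR. Ndufs1, the largest iron-sulphur subunit of complex I, read 8.60 and 8.26, 8.44 and 8.71, and 8.56 and 8.38 in the same groups. Atp5a1, the alpha subunit of the ATP synthase, read 9.80 and 9.74, 9.39 and 9.99, and 9.65 and 9.56. There were 7 members that were higher on the second array in every group: Atp5e, Atp5k, Cox7a2, Ndufa1, Ndufb8, Ndufs5 and Uqcr11 (7.69%, against 9.40% of all genes). Atp5e, the epsilon subunit of the ATP synthase, read 6.74 and 7.11 at day 7, 6.55 and 7.25 at untreated day 17, and 6.49 and 7.04 in uninjected OIR.

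Other gene lists moved between the arrays too. The summed level of the 15 tested citric acid cycle genes, on the log2 scale, was 13.09 and 12.51 at day 7, 13.01 and 12.51 in uninjected OIR, and 12.47 and 12.75 after PBS, the same order as in the members. Of 37 tested genes of the cytosolic ribosome, 23 were lower on the second array at day 7 and 27 in uninjected OIR, and 35 were higher on it after PBS. The 62 tested small nucleolar RNAs mostly ran against the members in the groups other than untreated day 17. Their medians were 7.56 and 8.46 at day 7, 7.62 and 8.17 in uninjected OIR, and 9.07 and 8.20 after PBS. After ISOX DUAL their medians were 8.20 and 8.21, but 42 of 62 were lower on the second array, against 6 of the 91 members. At untreated day 17 the small nucleolar RNAs read 7.05 and 7.98. There 58 of 62 were higher on the second array, as were 58 of the 91 members. The median of the 12 tested rod genes was 9.59 and 8.60 at day 7 and 11.23 and 10.83 in uninjected OIR, but 10.80 and 10.88 after PBS. The part of cell makeup, RNA quality or array handling in the gaps of the members was not tested.

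**Figure D3:**
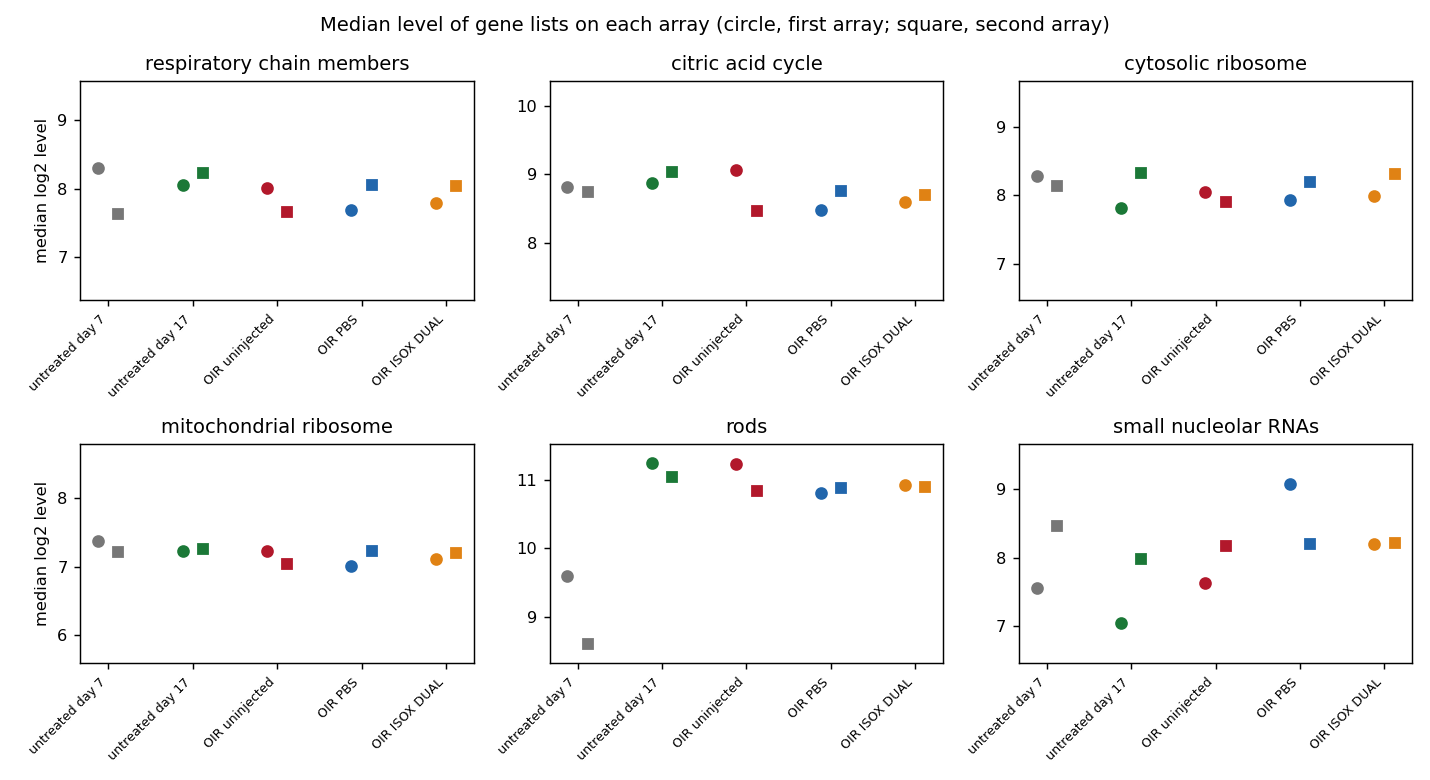
Median log2 level of the members and of 5 other gene lists on each array (circle, first array; square, second array; colours mark the groups), with axes of equal span and different offsets. Member medians lie between 7.63 and 8.31 with the 2 arrays of a group apart, rod medians rise from 9.59 and 8.60 at day 7 to 10.80 or more at day 17, and the small nucleolar RNAs are higher on the second array where the members at day 7 and in uninjected OIR are lower.

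From day 7 to day 17, when photoreceptors mature, 2 members rose and none fell, by limma with Benjamini-Hochberg adjustment over all genes tested and a threshold of 0.05. The same test called 10.6% of all genes. Ndufaf5, an assembly factor of complex I that hydroxylates the subunit Ndufs7, read 6.77 and 6.46 at day 7 and 7.42 and 7.31 at untreated day 17. Both day 17 arrays were above both day 7 arrays, and the difference was 0.75 ± 0.12 (SE), or 1.68-fold (limma adjusted p = 0.0082, n = 2 arrays a group). Uqcr10, a small subunit of complex III, read 6.71 and 6.44 at day 7 and 7.07 and 7.44 at day 17, again with no overlap. Its difference was 0.68 ± 0.15, or 1.60-fold (limma adjusted p = 0.0304), and it no longer passed without the second array of day 7 (adjusted p = 0.135), without the second array of untreated day 17 (adjusted p = 0.103) or without either ISOX DUAL array (adjusted p = 0.0662). Neither passed when the 4 arrays compared were fitted alone (adjusted p = 0.127 for Ndufaf5 and 0.204 for Uqcr10).

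None of the other members passed. In all, 76 of 91 were higher at day 17, against 52.0% of all genes, and the median difference was 0.20 against 0.011. This median was 0.0014 without the second array of day 7 and 0.34 without the first. It was 0.066 without the second array of untreated day 17, where 57 members were higher, and 0.28 without the first. Its size thus rests on which array of either group is read. Day 17 lay wholly above day 7 in 14 members (15.4%, against 20.7% of all genes) and wholly below in 1 (against 19.7%). At an unadjusted p under 0.05 there were 7 members (7.69%), against 22.8% of all genes.

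By complex, the median difference was 0.23 for the 33 complex I subunits, 0.23 for the 7 assembly factors, 0.011 for complex II, 0.21 for complex III, 0.24 for complex IV and 0.14 for complex V. Among those that missed the threshold, Uqcrh, the hinge protein of complex III, read 8.39 and 8.17 at day 7 and 8.58 and 8.81 at day 17 (0.42 ± 0.12, limma adjusted p = 0.0768). Ndufa2, an accessory subunit of complex I, read 7.73 and 7.64, then 8.00 and 8.43 (0.53 ± 0.17, limma adjusted p = 0.0943). The largest differences were those of Ndufb9 (0.86), Ndufa4 (0.82) and Uqcrb (0.80), with 95% intervals of -1.27 to 3.00, -0.32 to 1.97 and -0.44 to 2.04. On the other side, Ndufab1, the mitochondrial acyl carrier protein, read 7.62 and 7.50 at day 7 and 7.40 and 7.32 at day 17 (-0.20 ± 0.09, limma adjusted p = 0.216). It was the member whose day 17 arrays were both below those of day 7. Sdhd, a membrane anchor of complex II, had the lowest difference (-0.29 ± 0.27), and its day 7 arrays, 8.34 and 7.66, spanned the 7.46 and 7.95 of day 17 in part.

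**Figure D4:**
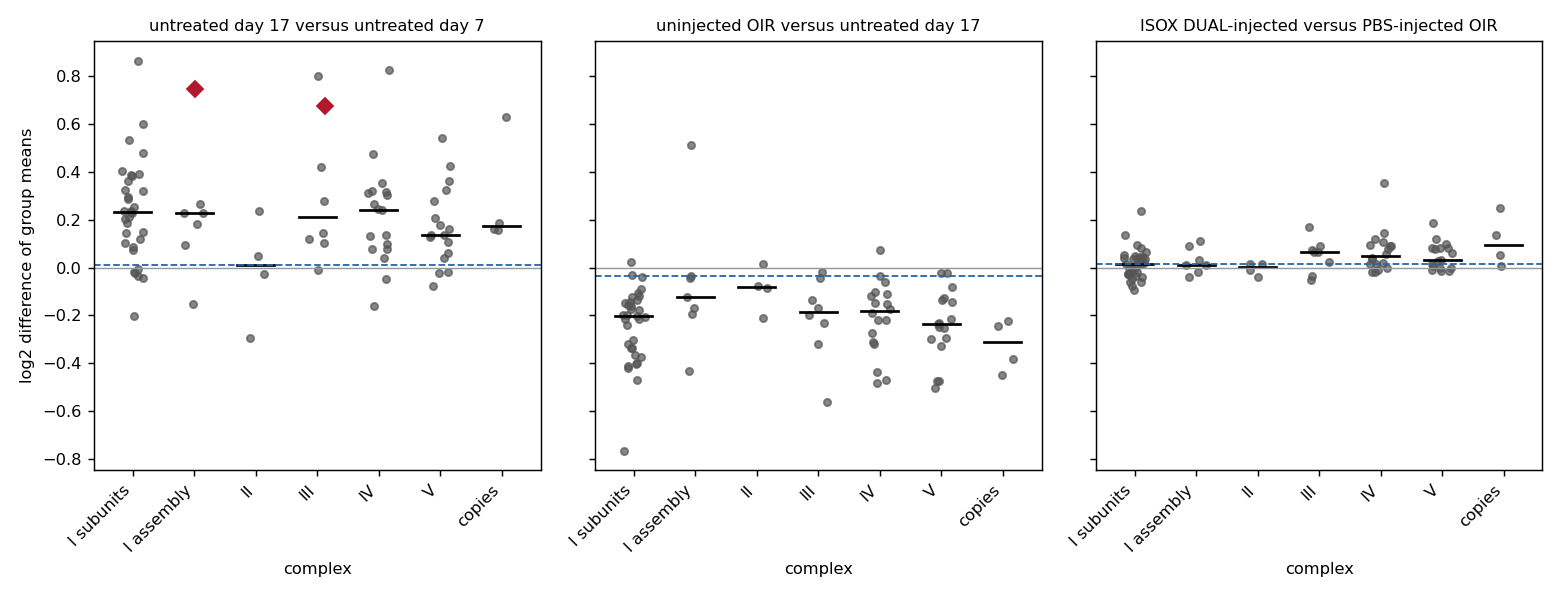
Difference of group means (log2) for each tested member by complex, in 3 comparisons. Circles are members, red diamonds the members that passed the threshold, the black bars the medians of each complex and the blue dashed line the median of all genes tested. Only Ndufaf5 and Uqcr10 passed, both from day 7 to day 17, and the points of uninjected OIR lie below 0 for 87 of 91 members.

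Other genes of the same pathway were read from lists of textbook members. Of 29 other assembly factors, 2 rose and none fell, where the test called 10.6% of all genes in either direction. These were Ttc19, needed for complex III (8.66 and 8.53 at day 7, 9.17 and 9.27 at day 17; 1.54-fold, limma adjusted p = 0.00699), and Uqcc3, an assembly factor of complex III (7.60 and 7.53, then 8.09 and 8.60; 1.71-fold, limma adjusted p = 0.0283). Of 10 regulators, 2 rose and 1 fell. Ppargc1a, a coactivator of mitochondrial genes, read 8.44 and 7.67 at day 7 and 9.47 and 9.01 at day 17 (2.27-fold, limma adjusted p = 0.0277). Its relative Ppargc1b rose 1.80-fold (limma adjusted p = 0.00384). Tfam, which packages mitochondrial DNA and takes part in its transcription, read 6.84 and 6.84 at day 7 and 6.36 and 6.54 at day 17 (fell by 0.39 on the log2 scale, limma adjusted p = 0.0421). Of 75 genes of the mitochondrial ribosome 1 fell, Mrps18a (-0.41, limma adjusted p = 0.0298), and none rose. None of 7 electron carriers and exchangers and none of 15 citric acid cycle genes passed the limma threshold. At an unadjusted p under 0.05 there were 0 and 3 of them, against 22.8% of all genes.

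Of the rod genes, 10 of 12 rose, with a median difference of 1.54, and of the cone genes 6 of 9 rose, where 10.6% of all genes were called. Of the bipolar cell genes 4 of 7 rose and 1 fell, with a median difference of 1.83. In pigment epithelium genes 4 of 9 rose, in endothelium genes 4 of 8 and in Müller glia genes 2 of 7, with 1 that fell in each of the last 2. No ganglion cell or microglia gene passed. The summed rod level was 13.54 and 13.01 at day 7 and 15.00 and 15.16 at untreated day 17. In bulk retina, fewer cells of a type and less RNA per cell cannot be told apart. The part of the higher rod level, or of the other cell types, in the rise of Ndufaf5 and Uqcr10 was not tested.

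In uninjected OIR no member passed the threshold against untreated day 17 (limma, 0 of 91), where the test called 0.495% of all genes. At an unadjusted p under 0.05 there was 1 member (1.10%), against 6.10% of all genes. The members were lower in OIR in 87 of 91, against 60.0% of all genes, with a median difference of -0.20 against -0.035. That median was within the array spread of 0.284, and it was -0.04 without the second array of uninjected OIR and -0.29 without the first array of untreated day 17. Both OIR arrays lay below both untreated arrays in 18 members (19.8%, against 19% of all genes) and above in 1 (against 9.44%). The typical member had an unadjusted 95% interval of ±0.48 around its difference, and smaller differences were not resolved at 2 arrays a group. Larger differences could miss the adjusted threshold as well.

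The member above was Ndufaf6, an assembly factor of complex I. It read 6.54 and 6.40 at untreated day 17 and 7.04 and 6.92 in uninjected OIR, with 6.80 and 6.44 at day 7. The difference was 0.51 ± 0.13, or 1.43-fold, and did not pass (limma adjusted p = 0.285). It read 6.71 and 6.64 after PBS and 6.74 and 6.79 after ISOX DUAL, between the 2 uninjected day 17 groups. The other 3 members with a positive difference were Cox4i2 (0.07), Ndufv3 (0.02) and Sdhd (0.01), each with overlapping arrays.

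Among the members with the smallest p on the lower side were Ndufb7, a complex I subunit of the intermembrane space, with 7.41 and 7.55 at untreated day 17 and 7.35 and 6.97 in OIR (-0.32 ± 0.16, limma adjusted p = 0.927). Ndufa2 read 8.00 and 8.43 against 7.94 and 7.82 (-0.34 ± 0.17, limma adjusted p = 0.931). The arrays of the groups did not overlap in either gene, although the first OIR array lay close to the first untreated array. The lowest difference of complex I was that of Ndufb9 (-0.76 ± 0.92), of complex III Uqcrb (-0.56 ± 0.53), of complex IV Cox8a (-0.48 ± 0.36) and of complex V Atp5h (-0.50 ± 0.55). In 3 of these, all but Cox8a, the first OIR array lay within the untreated range and the second array alone was low.

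Isoform pairs of complex IV that are known to differ with oxygen or tissue were read side by side. Cox4i1, the common form of subunit 4, read 7.13 and 7.53 at untreated day 17 and 7.17 and 7.11 in uninjected OIR (-0.19 ± 0.16). Cox4i2, the form known to be raised by low oxygen in some cells, read 7.70 and 7.30 against 7.83 and 7.33 (0.07 ± 0.21), with 95% limits of -0.42 and 0.57. Both OIR arrays of Cox4i2 were above those of the injected groups, which read 7.14 and 7.31 after PBS and 7.23 and 7.21 after ISOX DUAL. The second OIR array, 7.33, was however close to the second PBS array. Of all genes, 15.3% lay wholly below uninjected OIR after PBS and 15.4% after ISOX DUAL. Cox7a2, the common form of subunit 7a, read 8.22 and 8.97 at untreated day 17, 8.39 and 8.50 in uninjected OIR, 8.72 and 8.95 after PBS and 8.68 and 8.95 after ISOX DUAL. Cox7a1 read 5.62 to 6.15 over all arrays, near the negative controls. Cox6a1, the common form of subunit 6a, read 10.80 and 10.69 at untreated day 17 and 10.72 and 9.83 in OIR (-0.47 ± 0.44), whereas Cox6a2 stayed between 5.70 and 5.96 on all arrays.

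Ndufa4l2, a paralogue of Ndufa4 that low oxygen is known to induce, is no member, but its values stand beside those of Ndufa4. It read 6.70 and 6.42 at untreated day 17 and 9.35 and 8.37 in uninjected OIR, a 4.91-fold rise (2.30 ± 0.31, limma adjusted p = 0.0318). When the 4 arrays of this comparison were fitted alone, no gene passed, Ndufa4l2 included. Ndufa4 itself read 10.13 and 10.25 against 10.26 and 9.24 (-0.44 ± 0.50, limma adjusted p = 0.999). Ndufa4l2 also fell from day 7 to day 17 (8.75 and 8.23 at day 7, a difference of -1.93, limma adjusted p = 0.00800).

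**Figure D5:**
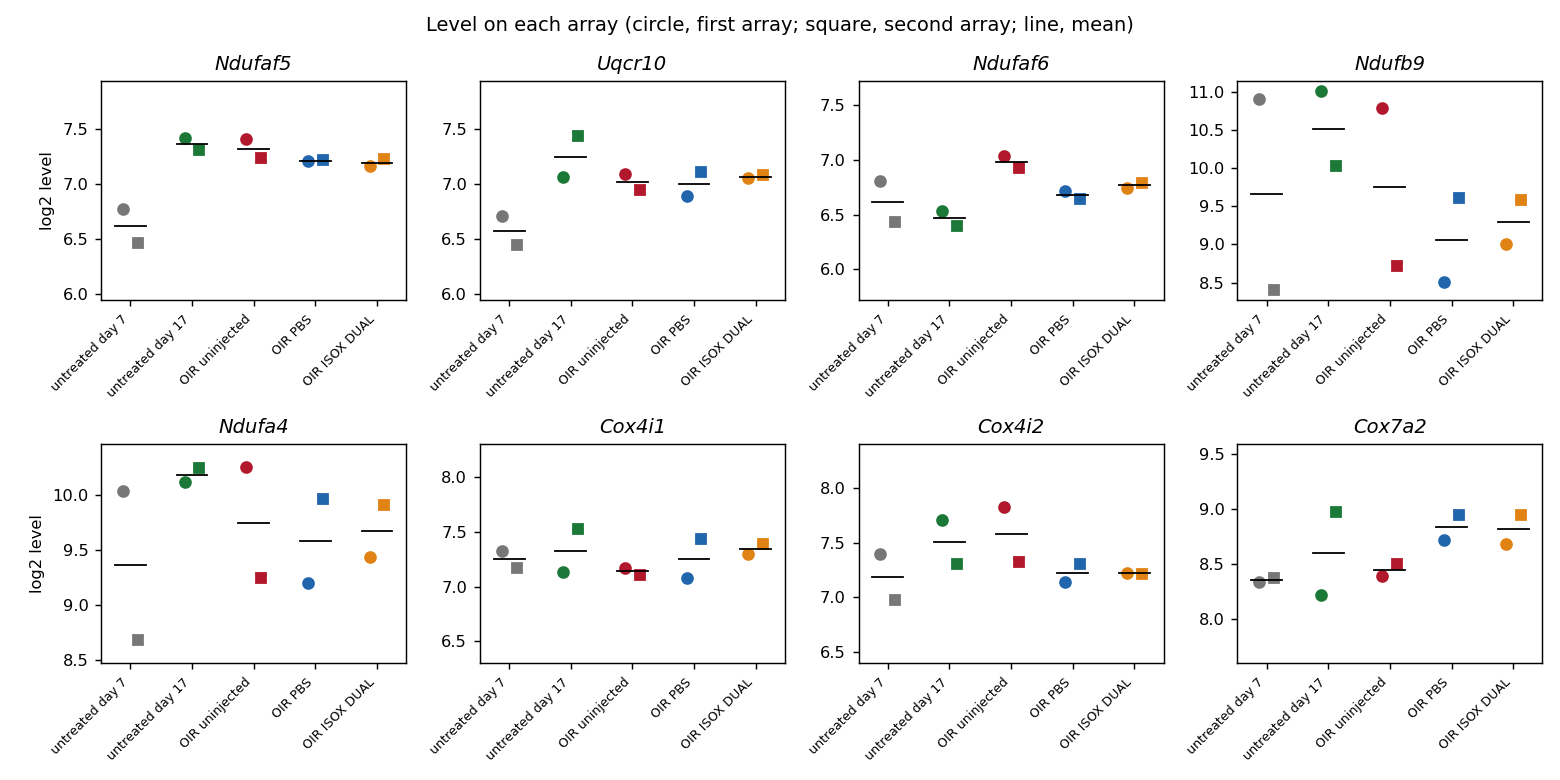
Log2 level of 8 members on each array (circle, first array; square, second array; line, group mean), with panel axes that differ in offset and span. Ndufaf5 and Uqcr10 are lowest on both day 7 arrays, Ndufaf6 is highest on both uninjected OIR arrays (7.04 and 6.92), and the 2 arrays of a group lie far apart for Ndufb9 and, at day 7 and in uninjected OIR, for Ndufa4.

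None of the other pathway lists had a call in uninjected OIR either (limma, 0 of 29 other assembly factors, 0 of 7 carriers, 0 of 10 regulators, 0 of 15 citric acid cycle genes and 0 of 75 mitochondrial ribosome genes, with 1 citric acid cycle gene at an unadjusted p under 0.05). The 7 carriers were all lower, with a median of -0.34, and the 12 rod genes had a median of -0.06. The summed rod level was 15.09 and 14.92 in uninjected OIR against 15.00 and 15.16, and the summed level of the Müller glia genes was 11.49 and 11.33 against 11.43 and 11.98. The Müller glia genes had a median of -0.44, with 6 of 7 lower. The pigment epithelium genes were lower in 9 of 9 (median -0.46, 6 of them without overlap), with a summed level of 10.94 and 10.40 at untreated day 17 and 10.49 and 9.57 in uninjected OIR. The ganglion cell genes were lower in 6 of 8 (median -0.31, 4 of them without overlap). Of all genes, 19% lay wholly below and 9.44% wholly above. The endothelium genes went the other way, higher in 7 of 8 (median 0.18, 5 of them without overlap). The microglia genes were higher in 6 of 9 (median 0.16, 3 of them without overlap). The small nucleolar RNAs were higher in 54 of 62 (median 0.24). The part of cell makeup in the lower values of the members was not tested.

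The labels give the aim of finding genes that OIR raised and ISOX DUAL returned, and for this both injected groups were compared with uninjected OIR and with each other. ISOX DUAL is known as an inhibitor of bromodomains. No member passed between ISOX DUAL and PBS (limma, 0 of 91, 0 at an unadjusted p under 0.05), where the test called 0% of all genes. The median difference was 0.03, with 61 of 91 higher, and the members ranged from -0.09 to 0.35. ISOX DUAL arrays lay wholly above PBS arrays in 3 members (against 16.6% of all genes) and wholly below in 0 (against 11.5%). The median was -0.12 without the first PBS array and 0.18 without the second, so its sign follows the PBS array that is read. At the top stood Cox8b, which is below the negative controls on all arrays (4.63 and 4.55 after PBS, 5.09 and 4.79 after ISOX DUAL). One ISOX DUAL array stood apart in lens genes, whose summed level was 10.73 and 13.03 there and 9.92 to 10.60 on the other 8 arrays. Without that second array the median member difference was -0.05.

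Against uninjected OIR, after PBS no member passed (limma, 0 of 91, 0 at an unadjusted p under 0.05), where 0% of all genes did. The median was -0.007, with leave-one-array-out values from -0.12 to 0.16, and PBS lay wholly above OIR in 11 members (against 20.9% of all genes) and wholly below in 3 (against 15.3%). After ISOX DUAL no member passed either (limma, 0 of 91, 0 at an unadjusted p under 0.05), where 0.0043% of all genes did. The median was 0.05, from -0.08 to 0.20 with 1 array left out, and the group lay wholly above OIR in 21 members (against 25.7%) and wholly below in 3 (against 15.4%). Both comparisons share the OIR arrays. Ndufb11, an accessory subunit of complex I, read 7.48 and 7.47 in uninjected OIR, 7.68 and 8.05 after PBS and 7.76 and 8.04 after ISOX DUAL, for differences of 0.39 ± 0.22 and 0.42 ± 0.22 (limma adjusted p = 0.966 and 0.991). The 3 members wholly below OIR were Cox4i2, Ndufaf5 and Ndufaf6 in both comparisons, with -0.35, -0.11 and -0.30 after PBS and -0.36, -0.12 and -0.21 after ISOX DUAL.

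Against untreated day 17, the members were mostly lower in the injected groups as well. After PBS 71 of 91 were lower, with a median of -0.18 (all genes -0.03), and none passed (limma, 0 of 91, where 0% of all genes passed). At an unadjusted p under 0.05 there was 1 member, Cox8b (1.10%, against 9.14% of all genes). The median was -0.03 without the first PBS array, where 51 members were lower, and -0.33 without the second. Leaving out an untreated array gave -0.27 for the first and -0.08 for the second. PBS arrays lay wholly below untreated arrays in 36 members (39.6%, against 28.7% of all genes) and wholly above in 1 (against 19.7%). After ISOX DUAL 65 were lower, with a median of -0.13 (all genes -0.01), and none passed (limma, 0 of 91, where 0.0172% of all genes passed). No member was at an unadjusted p under 0.05, against 8.46% of all genes. The median was -0.24 without the first untreated array and -0.06 without the second, where 50 members were lower, and -0.05 without the first ISOX DUAL array. ISOX DUAL arrays lay wholly below in 40 (44.0%, against 27.6%) and wholly above in 2 (against 20.6%). These comparisons and that of uninjected OIR share the untreated day 17 arrays. Other lists moved as well. Of the 15 citric acid cycle genes, 10 lay wholly below in each comparison (66.7%), with medians of -0.33 after PBS and -0.34 after ISOX DUAL. Of the 7 carriers, 5 did so in each (71.4%), with medians of -0.53 and -0.40. The shares wholly below were 25.3% and 30.7% in the mitochondrial ribosome, and 16.2% in both comparisons in the cytosolic ribosome. The ganglion cell genes were lower in 8 of 8, with medians of -0.73 after PBS and -1.08 after ISOX DUAL, and their median level was 8.01 and 8.30 at untreated day 17, 7.26 and 7.91 after PBS, and 7.53 and 6.88 after ISOX DUAL. The pigment epithelium genes were lower in 9 of 9, with medians of -0.62 and -0.64. Endothelium genes were higher in 7 of 8 after PBS and in 8 of 8 after ISOX DUAL. Microglia genes were higher in 6 of 9 and in 7 of 9. The small nucleolar RNAs were higher in 61 of 62 after PBS and in 58 after ISOX DUAL, with medians of 1.05 and 0.67. The part of these cells and RNAs in the lower values of the members was not tested. Sdhc, a membrane anchor of complex II, read 8.47 and 8.16 at untreated day 17, 7.92 and 8.04 after PBS and 8.03 and 7.91 after ISOX DUAL (-0.34 ± 0.16 and -0.35 ± 0.16, limma adjusted p = 0.544 and 0.606). Cox8a, the common form of subunit 8, had a mean of 10.01 at untreated day 17, with its arrays 0.02 apart, and read 8.97 and 9.62 after PBS and 9.16 and 9.55 after ISOX DUAL (-0.71 ± 0.36 and -0.66 ± 0.36, limma adjusted p = 0.550 and 0.655). Its injected arrays were all below both untreated arrays, yet the 2 PBS arrays were 0.65 apart.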

How the data were processed

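Total RNA of whole retina was extracted with Trizol and labelled with an Affymetrix whole-transcript kit, per the labels' protocols. The authors deposited log2 values, with 1 row for each transcript cluster and 1 column for each array. Which software, background correction and normalization made them is not given in the sources used here. No further normalization was applied. Symbols were updated through RefSeq genes of GRCm38.p6. A gene was tested if at least 2 of the 10 arrays lay above the 30th percentile of that array. One limma model (version 3.58.1, under R 4.3.3; lmFit, then eBayes, no covariates) took all 10 arrays, with Benjamini-Hochberg adjustment over all genes tested. The fit was tested on simulated data. The members and gene lists were chosen with earlier results of these data known. Members named were a fixed set of isoforms and core subunits, those past the threshold or of smallest p in each comparison, and the highest and lowest of each complex. Members quoted for their array gaps, and the 4 windows printed, were chosen after their values were seen. Replicate numbers were not taken as pairs: second minus first array correlated across genes at 0.81 between day 7 and uninjected OIR but at -0.41 between uninjected OIR and PBS. Atp5sl, now Dmac2 and known as a complex I factor, stayed with complex V by its symbol.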

Additional observations from a re-analysis of the deposited data

How the results depend on the processing

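From day 7 to day 17 the count of members that passed, 2, became 1 with array weights and 0 with the 4 arrays compared alone, which leaves fewer samples for the spread. Leaving out 1 array gave 1 to 3 members. In the fit with a replicate block 2 members passed, and with a block that exchanges the numbers of both injected groups, an alternative chosen after seeing the data, 3 passed. The count stayed at 2 under quantile normalization, median centring, no filter, the stricter filter at the 50th percentile, the mean of all clusters, eBayes with trend and, added after seeing the data, protein-coding genes with the members. In the other 6 comparisons 0 members passed under every alternative run. The median member difference moved with single arrays: it ran from 0.0014 to 0.34 for day 7 to day 17, and changed sign in the 3 comparisons among OIR groups. With 2 arrays a group, the number of arrays limits the precision.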
